A study of Mus musculus with 6 samples.

Results

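The Cip/Kip family of cell cycle inhibitors was followed in splenic myeloid-derived suppressor cells (MDSCs) through its 3 genes, Cdkn1a (p21), Cdkn1b (p27), and Cdkn1c (p57). The genes were chosen by symbol, and all 3 were found among the 8191 genes of the deposited expression table. RNA-seq had been done on untreated MDSCs, the immature and immunosuppressive myeloid cells that bear CD11b and Gr1, taken from spleens of old mice (18 to 24 months) on a BALB/c background. The 3 groups were WT mice, Tnfr1-/- mice, which lack TNF receptor 1, and Tnfr2-/- mice, which lack TNF receptor 2. Each group had 2 samples, and cells of 5 mice were pooled for each. Since mice were pooled, the spread between samples is not that between mice. BALB/c mice were bought from a supplier and both knockout lines came from the authors' laboratory, so that the source of the mice cannot be told apart from the loss of a receptor.

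Cip/Kip proteins bind complexes of a cyclin and a cyclin-dependent kinase (CDK) and stop the kinase from driving a cell through the cycle. p21 is the classical target of p53 and a common marker of senescence, p27 holds resting cells out of the cycle and is kept low in dividing cells by the ubiquitin ligase that contains Skp2, and p57 is made from an imprinted gene and is known for keeping stem cells at rest. The other inhibitor family, INK4, acts only on Cdk4 and Cdk6. In the myeloid lineage, p21 rises as monocytes mature to macrophages, and p27 accumulates as granulocyte precursors leave the cycle.

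The promoters of the members are shown first, because members with similar roles lay on opposite sides of the comparisons below. RefSeq windows of 300 bases (GRCm38.p6, 250 bases before the start and 50 from it on) matched 2 of the 3 members, Cdkn1a at 2 start sites and Cdkn1b at 1, and all 3 windows are on the plus strand. Capitals mark the matches found on either strand to a p53 half-site, to a GC box (GGGCGG, the letters bound by Sp factors), or to a CCAAT box (CCAAT), and no match overlaps another.
Cdkn1a, chr17:29090729-29091028: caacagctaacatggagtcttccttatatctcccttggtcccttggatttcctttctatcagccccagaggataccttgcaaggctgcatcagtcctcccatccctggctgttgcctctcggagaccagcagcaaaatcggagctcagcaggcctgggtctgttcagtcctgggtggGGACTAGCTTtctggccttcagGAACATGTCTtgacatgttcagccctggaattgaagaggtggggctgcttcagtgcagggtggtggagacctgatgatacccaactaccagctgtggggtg
Cdkn1a, chr17:29093519-29093818: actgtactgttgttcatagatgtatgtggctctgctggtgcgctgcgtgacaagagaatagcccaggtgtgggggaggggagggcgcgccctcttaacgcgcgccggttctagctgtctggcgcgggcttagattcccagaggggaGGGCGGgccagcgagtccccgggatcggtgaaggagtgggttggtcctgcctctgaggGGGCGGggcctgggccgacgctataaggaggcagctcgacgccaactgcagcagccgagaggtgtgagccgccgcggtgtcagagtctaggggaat
Cdkn1b, chr6:134920151-134920450: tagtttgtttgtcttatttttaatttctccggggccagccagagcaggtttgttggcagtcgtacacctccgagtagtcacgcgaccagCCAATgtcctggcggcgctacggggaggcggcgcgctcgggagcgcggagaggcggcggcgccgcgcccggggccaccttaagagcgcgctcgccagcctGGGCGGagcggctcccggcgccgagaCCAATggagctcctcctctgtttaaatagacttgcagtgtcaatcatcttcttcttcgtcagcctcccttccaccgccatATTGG
The first Cdkn1a window held 2 p53 half-sites, 73 to 64 and 51 to 42 bases before the start, a motif found in 8.36% of all 32851 promoter windows. The second held 2 GC boxes, and the Cdkn1b window held 1 GC box and 3 CCAAT boxes. GC boxes occurred in 35.7% of all windows and CCAAT boxes in 37.4%. The letters searched for FoxO (GTAAACA), E2F (TTTGGCGC or TTTCCCGC), and the E-box CACGTG were in none of these 3 windows, and occurred in 3.65%, 1.56%, and 7.15% of all windows.

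On GRCm38 (mm10, GENCODE M21), Cdkn1a lies on chromosome 17 from 29090976 to 29100727, Cdkn1b on chromosome 6 from 134920401 to 134925513, and Cdkn1c on chromosome 7 from 143458339 to 143461050 on the minus strand. Cdkn1a overlaps the annotated gene AC167363.2 on the other strand, and 10.5% of the 50-base windows of its transcripts also occur there. Cdkn1c overlaps the antisense gene Gm44732, which holds 26.6% of its windows. Neither overlapping gene is listed in the table, and whether counting used strand is not given in the sources used here, so reads from these genes cannot be told apart from reads of Cdkn1a and Cdkn1c there. No window of Cdkn1b occurs in another gene.

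Levels were deposited as FPKM, a read number divided by transcript length and by sequencing depth, so that levels of different genes can be set side by side. The authors had kept only genes whose deposited p-value for a difference among the 3 genotypes was under 0.05, so the members too were picked for such a difference. The 8191 genes summed to between 1.34e+05 and 1.55e+05 FPKM in the knockout samples and to more than that, 3.45e+05 and 3.47e+05 FPKM, in WT. Low values in WT lay on steps of whole reads, from which the depth of the WT samples was estimated. The size of a step was read from only 4 genes in WT replicate 1 and 6 in WT replicate 2, so this depth is approximate. The depth of the knockout samples was not estimated here and is unknown, and whether WT and knockout samples were quantified alike was not tested. The difference between the sums follows the genotype, and a part of depth or processing in it cannot be told apart from that of the genotype. At the depth so estimated, the WT values of Cdkn1a rest on about 4858 and 4640 reads, those of Cdkn1b on about 1612 and 1504, and those of Cdkn1c on about 208 and 206, if each gene is counted over its longest transcript.

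The targeted gene Tnfrsf1b (TNF receptor 2) was at 112 and 115 FPKM in WT, at 47.8 and 69.6 FPKM in Tnfr1-/- samples, and at 11.3 and 14.3 FPKM in Tnfr2-/- samples, so that both Tnfr2-/- samples were lowest. Tnfrsf1a was not listed and was not analysed here. Ptprc (CD45), a marker of the isolated cells, was not even across the groups. It was at 98.2 and 105 FPKM in WT, at 229 and 271 FPKM in Tnfr1-/-, and at 267 and 237 FPKM in Tnfr2-/- samples. Itgam (CD11b) and Ly6g, other markers of the gate, were not listed. Gr1 comprises Ly6G and Ly6C, and the Ly6C gene Ly6c1 was listed. It was at 0.159 and 0.0638 FPKM in WT, at 95.8 and 99.6 FPKM in Tnfr1-/-, and at 121 and 178 FPKM in Tnfr2-/- samples. Whether the groups held like cells was not tested.

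Cdkn1a was the main Cip/Kip message in WT MDSCs and was low in both knockouts. It was at 126 and 120 FPKM in WT, at 5.80 and 8.55 FPKM in Tnfr1-/-, and at 8.998 and 23.7 FPKM in Tnfr2-/- samples. The lowest WT sample was above the highest knockout sample, in a table kept for differences among the genotypes. How many of all genes set WT apart in this way was not counted. The knockout ranges lay close together and were not called apart in the test below. The mean in WT (123 ± 3.84 FPKM, SD, n = 2) was 7.54 times that in Tnfr2-/- (16.3 ± 10.4 FPKM) and 17.2 times that in Tnfr1-/- (7.17 ± 1.94 FPKM). Among all listed genes of a sample, Cdkn1a stood at percentile 95.4 to 95.7 in WT, at 54.8 to 65.4 in Tnfr1-/-, and at 65.5 to 84.6 in Tnfr2-/- samples.

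Cdkn1b went the other way. It was at 19.1 and 17.8 FPKM in WT, at 85.8 and 109 FPKM in Tnfr1-/-, and at 98.9 and 76.7 FPKM in Tnfr2-/- samples. All 4 knockout samples were above both WT samples, and the knockouts overlapped each other. The mean in Tnfr2-/- (87.8 ± 15.7 FPKM, SD, n = 2) was 4.76 times, and that in Tnfr1-/- (97.6 ± 16.7 FPKM) 5.28 times, the mean in WT (18.5 ± 0.884 FPKM). With percentiles of 96.2 to 98.0, Cdkn1b was among the most abundant listed messages of every knockout sample, against 68.1 to 69.6 in WT.

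Cdkn1c was the least abundant member in each sample and was lower in the knockouts. It was at 5.91 and 5.87 FPKM in WT, at 0.194 and 0.351 FPKM in Tnfr1-/-, and at 0.237 and 0.336 FPKM in Tnfr2-/- samples. The knockouts overlapped each other well below WT. The WT mean (5.89 ± 0.0324 FPKM, SD, n = 2) was 20.5 times that in Tnfr2-/- (0.287 ± 0.0702 FPKM) and 21.6 times that in Tnfr1-/- (0.272 ± 0.110 FPKM).

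**Figure D1:**
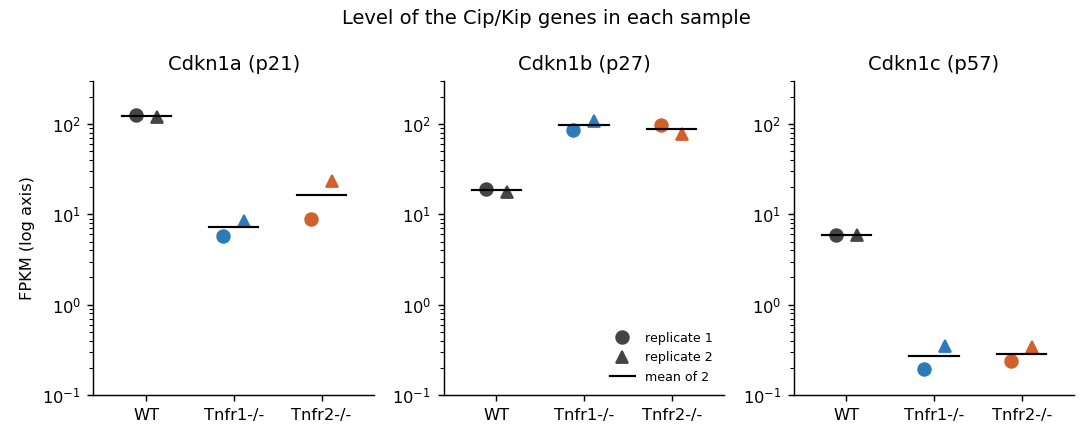
FPKM of each Cip/Kip gene (log axis) in the 2 samples of WT, Tnfr1-/-, and Tnfr2-/- MDSCs, with replicates as symbols and the mean of 2 as a line. Cdkn1a and Cdkn1c are higher in both WT samples than in all 4 knockout samples, and Cdkn1b is lower.

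The differences from WT were tested with limma on log2(FPKM + 1) in one model of all 6 samples, two-sided, with Benjamini-Hochberg adjustment over all 8191 genes, and called at an adjusted p under 0.05 and a fold change over 1.5. All 3 members were called in Tnfr2-/- against WT, where 70.7% of all genes were called (13.6% higher, 57.1% lower), and all 3 in Tnfr1-/- against WT, where 74.8% were called (14.1% higher, 60.7% lower). A call as such is therefore common in this table, and the sizes say more. These 2 comparisons share their WT samples.

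Cdkn1a fell by 2.98 on the log2 scale in Tnfr2-/- (SE 0.45, 95% interval -4.15 to -1.82, adjusted p = 0.00210) and changed by -3.95 in Tnfr1-/- (-5.11 to -2.78, adjusted p = 0.000729). Cdkn1b rose by 2.18 in Tnfr2-/- (SE 0.17, 1.73 to 2.63, adjusted p = 0.000266) and by 2.33 in Tnfr1-/- (1.88 to 2.78, adjusted p = 0.000191). Cdkn1c fell by 2.42 in Tnfr2-/- (SE 0.078, -2.62 to -2.22, adjusted p = 2.08e-05) and changed by -2.44 in Tnfr1-/- (-2.64 to -2.24, adjusted p = 1.95e-05). For Cdkn1c the log2 difference understates the ratio of the means, since the added 1 is larger than its knockout values.

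The median gene was itself lower in the knockouts, by -0.74 (Tnfr2-/-) and -0.83 (Tnfr1-/-) on the log2 scale, and scaling with median-ratio size factors brought these medians to -0.032 and -0.033. On that scale Cdkn1a still fell (-2.01 in Tnfr2-/- and -2.86 in Tnfr1-/-), and so did Cdkn1c (-1.76 and -1.74), while Cdkn1b rose by 3.12 and 3.42. Over the 9 alternatives that kept all samples, and with each sample left out in turn, these calls against WT held for every member the alternative kept. The genes had been filtered on these same values for a difference among the genotypes. All adjusted p-values here therefore come after selection, and the alternatives are no independent support. A filter at a mean of 5 FPKM removed Cdkn1c.

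The knockouts themselves, the comparison that tells the receptors apart, gave no call for any member, where 1.45% of all genes were called (0.842% higher, 0.61% lower). Cdkn1a differed by 0.96 (Tnfr2-/- minus Tnfr1-/-, 95% interval -0.20 to 2.13, adjusted p = 0.274), with means 2.28 times apart. Leaving out Tnfr2-/- replicate 1 gave 1.62 (adjusted p = 0.0322), a call, and leaving out Tnfr2-/- replicate 2 gave 0.31. Each of these rests on a lone Tnfr2-/- sample, assumed to vary like the other groups, so that the spread between the Tnfr2-/- samples no longer counts (SE 0.23 in the first, against 0.45 with all samples). The gap between both Tnfr2-/- samples in Cdkn1a was 1.304 on the log2 scale, wider than that of 99.7% of all genes (median 0.148).

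Cdkn1b differed by -0.15 between the knockouts (-0.60 to 0.30, adjusted p = 0.652), and Cdkn1c by 0.02 (-0.18 to 0.22, adjusted p = 0.931). For Cdkn1c the interval leaves room for a difference of at most 0.22 on the log2(FPKM + 1) scale. Its knockout values (0.194 to 0.351 FPKM) are below the added 1, so this scale understates how far they may differ as a ratio. For Cdkn1a a difference as large as 4.37-fold on that scale lies within the interval. The order of the levels in WT was thus Cdkn1a, Cdkn1b, Cdkn1c, and in each knockout sample Cdkn1b, Cdkn1a, Cdkn1c.

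**Figure D2:**
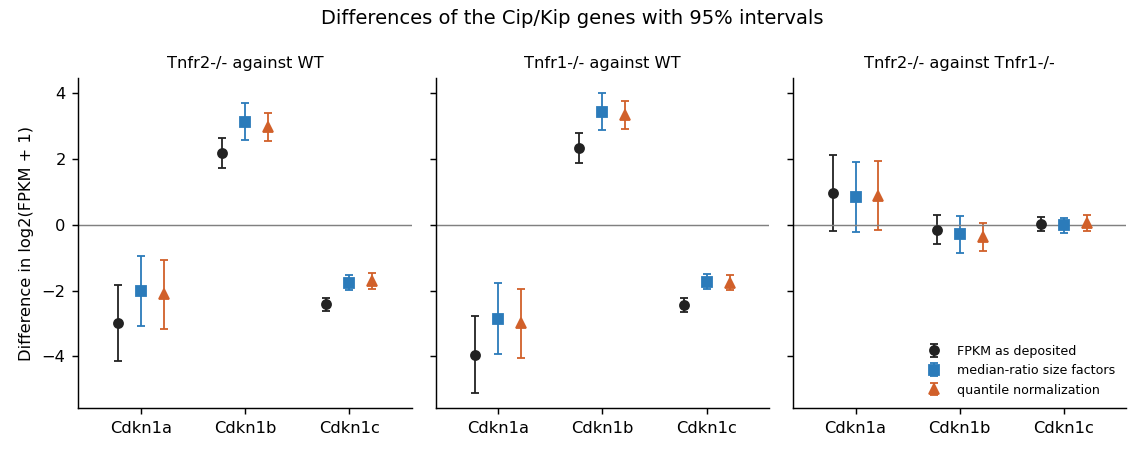
Difference in log2(FPKM + 1) of each Cip/Kip gene for 3 comparisons, from FPKM as deposited and after median-ratio scaling or quantile normalization; bars are 95% intervals of the limma model. Against WT, the intervals stay on one side of 0 under each scaling (for example -2.01 for Cdkn1a in Tnfr2-/- with median-ratio size factors), and between the knockouts all include 0.

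Because the members moved in opposite directions, the make-up of the Cip/Kip message changed more than its sum, and the make-up stays the same when a sample is scaled by one factor, as with median-ratio size factors. The sum of the 3 genes was 151 and 144 FPKM for WT, 91.8 and 118 FPKM for Tnfr1-/-, and 108 and 101 FPKM for Tnfr2-/- samples. Its direction turned after median-ratio scaling, which gave 90.4 and 86.9 for WT, 120 and 160 for Tnfr1-/-, and 137 and 114 for Tnfr2-/- samples. Cdkn1a made up 83.4% and 83.6% of this sum in WT, 6.32% and 7.23% in Tnfr1-/-, and 8.32% and 23.5% in Tnfr2-/- samples. Cdkn1b made up the largest share in all 4 knockout samples, from 76.2% to 93.5%, against 12.4% and 12.7% in WT.

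The ratio of Cdkn1b to Cdkn1a was 0.152 and 0.148 in WT, 14.8 and 12.8 in Tnfr1-/-, and 10.99 and 3.24 in Tnfr2-/- samples. No knockout sample came near WT, and the sample with the lowest ratio among them was Tnfr2-/- replicate 2, the one with the most Cdkn1a. Cdkn1c made up 3.92% and 4.07% of the sum in WT and at most 0.334% in any knockout sample.

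**Figure D3:**
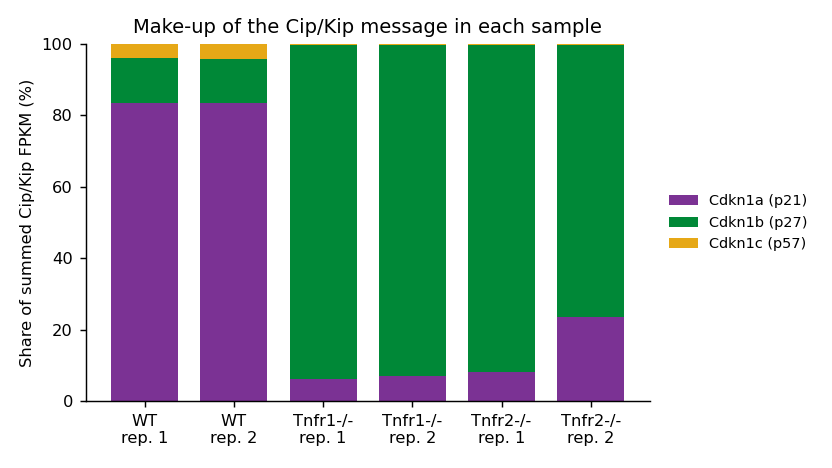
Share of each gene in the summed Cip/Kip FPKM (%, bars from 0) in each of the 6 samples. Cdkn1a holds over 83% in WT, and Cdkn1b holds 76.2% to 93.5% in the knockouts.

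Cell type markers moved along with the members, as bulk samples can show when cells of a type are fewer or hold less of an RNA, which cannot be told apart here. Of 12 macrophage markers, all listed, 11 were lower and Cd163 was higher in both knockouts, and their sum was 3751 to 3853 FPKM over the WT samples, 292 to 336 FPKM over those of Tnfr1-/-, and 367 to 407 FPKM over those of Tnfr2-/-. The sum thus ran with Cdkn1a and Cdkn1c, high in WT and low elsewhere. The 3 listed granulocyte markers of 13 (Retnlg, Mmp9, Csf3r) summed to 13.7 to 15.4 FPKM over the WT samples, 2732 to 3070 FPKM over those of Tnfr1-/-, and 1522 to 2450 FPKM over those of Tnfr2-/-, and the 5 listed B and plasma cell markers of 7 to 211 to 245, 1197 to 1829, and 2334 to 2352 FPKM. Both sums ran with Cdkn1b. The macrophage sum was above the granulocyte sum in the WT samples and below it in the knockout samples. These sums do not rank the cell types within a sample. All 12 macrophage markers but only 3 of 13 granulocyte markers were listed, in a table kept for differences among the genotypes. The part of these cell types in the members' differences was not tested.

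Genes whose pattern over the 6 samples was most like a member's were ranked by the root mean square difference of log2(FPKM + 1) after centring each gene, over 6728 genes with a mean of at least 1 FPKM. For Cdkn1a they were Tgm2 (a transglutaminase, 0.148), Bcl2a1a (an inhibitor of cell death, 0.184), Siglec1 (a lectin of macrophages, 0.193), Bcl2a1d (0.204), and Nr1h3 (the sterol-sensing receptor LXR alpha, 0.222). Bcl2a1a and Bcl2a1d are near-identical copies whose reads counting could split. Tgm2 also had the raised Tnfr2-/- replicate 2, at 20.7 FPKM against 8.47 FPKM in replicate 1.

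For Cdkn1b they were Bcl6 (a transcriptional repressor, 0.0533), Rab11fip4 (0.0786), AI467606 (0.0829), Klf3 (a Krueppel-like repressor, 0.0980), and Herpud2 (0.112). Those for Cdkn1c included Dolpp1 (0.0509), Ptpn2 (a tyrosine phosphatase that acts on JAK and STAT proteins, 0.0580), Arhgef40 (0.0608), and Pgpep1 (0.0699). With only 3 groups, such likeness is shared by any genes that differ in the same way between WT and knockouts.

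Genes with roles around the Cip/Kip inhibitors were read from 8 lists, 150 gene symbols in all, of which 96 were listed. Some symbols are alternative names of the same gene. In Tnfr2-/- against WT 18 were higher, 62 lower, and 16 not called (median -0.95, against -0.74 over all genes), and in Tnfr1-/- against WT 18 were higher, 68 lower, and 10 not called (median -1.07, against -0.83). After median-ratio scaling the counts were 22 higher and 22 lower, and 22 higher and 21 lower, so most of the lower calls hang on the scaling. Over all 8191 genes, 57.1% and 60.7% were lower as deposited, and 1717 and 1814 genes after that scaling. Of the genes named in the text, 74 of 104 called differences kept their call under both median-ratio and quantile scaling.

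Among the INK4 inhibitors, 2 of 4 were listed. Cdkn2d (p19INK4d) rose like Cdkn1b. The WT samples had 10.2 and 11.3 FPKM of it, against 95.9 and 81.2 FPKM in Tnfr1-/- samples and 94.8 and 70.7 FPKM in those of Tnfr2-/-. Its difference was 2.82 in Tnfr2-/- and 2.93 in Tnfr1-/- on the log2 scale. Cdkn2b (p15INK4b) fell with Cdkn1a. The WT samples had 3.02 and 3.68 FPKM of it, against 0.423 and 0.250 FPKM in Tnfr1-/- and 0.609 and 1.22 FPKM in Tnfr2-/- samples. Its differences were -1.20 in Tnfr2-/- and -1.70 in Tnfr1-/-, and its call in Tnfr2-/- was lost under both other scalings. Cdkn2a (p16) and Cdkn2c were not listed and were not analysed here.

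Of 20 cyclins, CDKs, and genes that regulate CDKs, 11 were listed, and 10 were lower in each knockout, with Cdk7 not called. Not all of these are bound by the inhibitors. After median-ratio scaling 3 were lower in each, where 1717 and 1814 of all 8191 genes were lower. Ccnd1 (cyclin D1) fell (-2.61 in Tnfr2-/- and -2.96 in Tnfr1-/-), as did Ccne1, cyclin E1, the partner of Cdk2 (-1.94 and -1.79). Both calls held under the other scalings. Ccnd2 (cyclin D2) fell (-1.87 and -1.19), the second of which was lost on rescaling. Cdk4 (-0.98 and -1.10) and Cdk6 (-0.94 and -0.87), the partners of D cyclins, were called lower on deposited FPKM only, and the sign of both in Tnfr1-/- turned with median-ratio size factors. In Tnfr2-/- the Cdk4 call was also lost without either WT sample (adjusted p = 0.0532 and 0.0597).

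Of the Rb and E2F genes, 7 of 13 were listed. E2f1, which switches on genes of S phase, fell (-2.16 in Tnfr2-/- and -2.74 in Tnfr1-/-), and E2f3 rose by 0.86 and 0.68, the latter below the fold threshold without Tnfr1-/- replicate 1 (0.55). In all 1 was higher and 2 lower in Tnfr2-/-, and 1 higher and 3 lower in Tnfr1-/-. Over all genes 13.6% and 14.1% were higher, and 57.1% and 60.7% lower. Rbl1 (p107) was not called (-0.46 and -0.51), and its sign turned under both other scalings.

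Replication and proliferation genes stood with the cyclins: 20 of 21 listed genes were lower in Tnfr2-/- and 21 of 21 in Tnfr1-/- (medians -1.305 and -1.52). Over all genes 57.1% and 60.7% were lower. With median-ratio size factors 6 of the 21 were lower in each knockout, against 1717 and 1814 of all 8191 genes. Birc5 (survivin, a mitotic gene) fell (-2.94 and -3.09) and kept its calls, whereas Pcna, the sliding clamp that p21 binds, fell (-1.36 and -1.70) and lost them. Pcna was at 166 and 164 FPKM in WT and at 45.9 to 71.0 FPKM in the knockouts.

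Among p53, its regulators, and its classical targets besides Cdkn1a, 18 of 28 were listed. In Tnfr2-/- 4 were higher and 11 lower (median -1.10), and in Tnfr1-/- 4 higher and 13 lower (median -0.95). Over all genes 13.6% and 14.1% were higher, and 57.1% and 60.7% lower. With median-ratio size factors the list counts became 4 and 7, and 4 and 6, where 1717 and 1814 of all 8191 genes were lower. The target Phlda3, an inhibitor of Akt, fell (-6.15 and -6.14), from 89.1 and 84.3 FPKM in WT to at most 0.327 FPKM in the knockouts. Trp53inp1, another target, rose by 2.28 and 1.87, so p53 targets lay on both sides. Trp53 itself fell (-1.17 and -1.25) on deposited FPKM, and both calls were lost on rescaling. Mdm2, the ligase that degrades p53, was called lower in Tnfr1-/- (-0.64) and not in Tnfr2-/- (-0.55), the difference between knockouts being 0.08 (adjusted p = 0.614), and its sign turned under both other scalings. Mdm2 lost its call in Tnfr1-/- without WT replicate 1 (-0.56) and gained one in Tnfr2-/- without WT replicate 2 (-0.63).

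Among ubiquitin ligase subunits and related genes linked to the turnover of Cip/Kip proteins, 15 of 21 symbols were listed. Not all of these act to degrade the inhibitors. In Tnfr2-/- 2 were higher and 10 lower, and in Tnfr1-/- 2 higher and 11 lower. Over all genes 13.6% and 14.1% were higher, and 57.1% and 60.7% lower. On rescaling by median ratios none of the list was lower, and 3 and 2 were higher, where 1787 and 1908 of all 8191 genes were higher. Skp2, the F-box protein that targets p27, was at 5.09 and 4.91 FPKM in WT and at 1.298 to 1.96 FPKM in the knockouts. It fell (-1.24 in Tnfr2-/- and -1.14 in Tnfr1-/-), as did its cofactor Cks1b (-1.48 and -2.27), but the Skp2 calls were lost under both other scalings, and so were those of Cks1b, except in Tnfr1-/- under quantile scaling (-1.35). The Cks1b call in Tnfr2-/- was lost without any one of the 4 samples compared (-1.31 to -1.65, adjusted p = 0.0768 to 0.132). Fbxl12, an F-box protein that targets p57 and p21, rose by 1.14 and 1.65.

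FoxO factors, which activate Cdkn1b, and the Akt pathway upstream of them had 8 of 15 genes listed, with 4 higher and 2 lower in each knockout (medians 0.64 and 0.58). Foxo1 rose by 1.35 in Tnfr2-/- and 1.38 in Tnfr1-/-, and Foxo3 by 1.17 and 1.09. The kinase Sgk1, which phosphorylates FoxO factors, fell (-2.77 and -2.76). These calls held under the other scalings, where 5 were higher in Tnfr2-/- and 6 in Tnfr1-/-. After median-ratio scaling 1787 and 1908 of all 8191 genes were higher.

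Of TGF-beta, Smad, Krueppel-like, and Sp genes, which act on Cip/Kip promoters, 14 of 24 were listed, with 6 higher and 6 lower in Tnfr2-/- and 6 higher and 7 lower in Tnfr1-/-. Over all genes 13.6% and 14.1% were higher, and 57.1% and 60.7% lower. Rescaled by median ratios, 7 of the list were higher in each, and 3 and 2 lower. On that scale 1787 and 1908 of all 8191 genes were higher, and 1717 and 1814 lower. Klf2 rose most, by 4.70 and 4.52, from 12.2 and 10.01 FPKM in WT to at least 226 FPKM in every knockout sample. Tgfbr1, a receptor of TGF-beta, fell (-1.85 and -2.20.) Cebpa, a myeloid factor that can raise p21, fell (-1.72 and -2.70), and was the only gene of the 8 lists called between the knockouts (0.99 higher in Tnfr2-/-, adjusted p = 0.0277). That call was lost when any sample but Tnfr2-/- replicate 1 was left out (0.90 to 1.08, adjusted p = 0.0707 to 0.123), and also with a replicate block (adjusted p = 0.0614), with only the 2 groups (0.153), without trend, and as for 25000 genes.

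**Figure D4:**
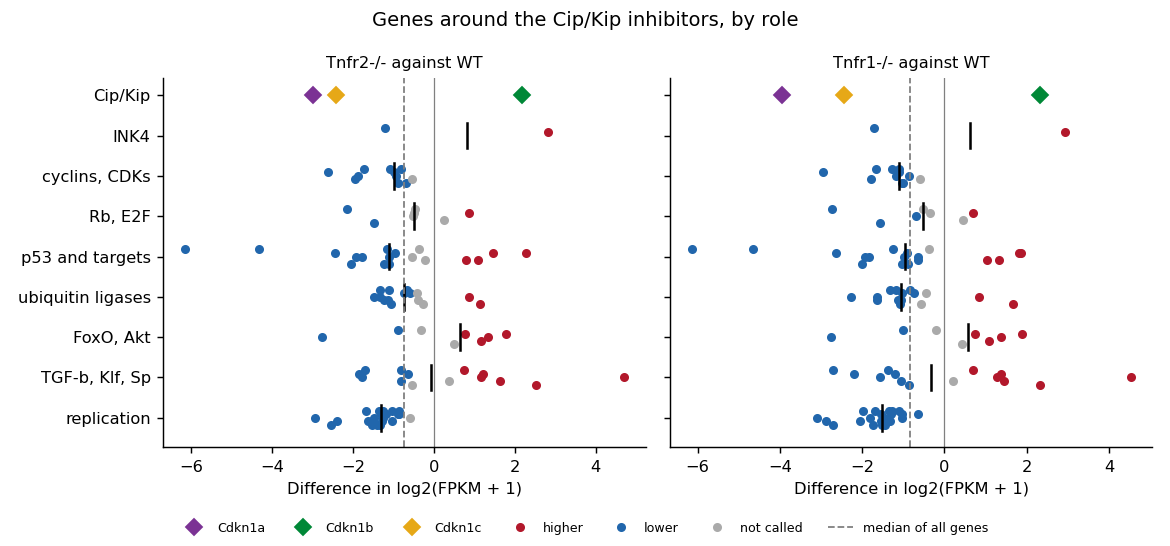
Difference in log2(FPKM + 1) from WT for the Cip/Kip genes (diamonds) and the listed genes of 8 roles (points, coloured by call); black bars are the list medians and the dashed line the median of all genes (-0.74 and -0.83). Cyclins and replication genes lie left of 0, while FoxO and Akt genes lie on both sides.

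Cdkn1c lies in an imprinted cluster, and its neighbours were compared with those of the other members. Within 500 kb of its start, 12 genes were listed, and all 12 were lower in both knockouts (medians -1.39 and -1.25). Over all genes, 57.1% were lower in Tnfr2-/- and 60.7% in Tnfr1-/-. Between the knockouts 0 of the 12 were called (adjusted p from limma). Around Cdkn1a 13 genes were listed, with 3 higher and 3 lower in Tnfr2-/- and 4 higher and 3 lower in Tnfr1-/-, and around Cdkn1b 6 genes, with 0 higher in either and 3 and 4 lower. With median-ratio size factors, 7 of the 12 around Cdkn1c were lower in Tnfr2-/- and 5 in Tnfr1-/-, none higher, with medians of -0.68 and -0.23. On that scale 1717 and 1814 of all 8191 genes were lower.

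Of 22 gene symbols of the imprinted region, some of them alternative names, 12 were listed and 11 were lower in each knockout. Apart from Mrgpre, the 12 neighbours above belong to this list too, so both counts rest on nearly the same genes. The nearest to Cdkn1c, the transporter Slc22a18 at 12.7 kb upstream, was at 2.29 and 1.99 FPKM in WT and at 0.0605 to 0.189 FPKM in the knockouts, and fell (-1.44 and -1.52.) Dhcr7, an enzyme of cholesterol synthesis, fell (-3.21 and -3.51), and the TNF receptor family genes Tnfrsf23 (-2.40 and -2.24) and Tnfrsf26 (-2.23 and -1.82) fell as well. Cars (-1.61 and -1.61) also kept its calls under both other scalings.

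Tspan32 (-1.72 and -1.36) kept its call in Tnfr2-/- only, and Cd81 (-1.31 and -1.15), Tnfrsf22 (-1.13 and -0.78), and Nadsyn1 (-0.92 and -0.92) lost theirs on rescaling. Nap1l4 (-0.85 and -0.88) and Tssc4 (-0.60 and -0.80) lost theirs and turned in sign with median-ratio size factors. The Tssc4 call in Tnfr2-/- was also lost without WT replicate 1 (-0.54), WT replicate 2 (-0.66), or Tnfr2-/- replicate 1 (-0.51). Igf2 was at or below 0.0771 FPKM in each sample and was not called. The share of imprinting, of cell types, and of processing in this pattern was not tested.

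**Figure D5:**
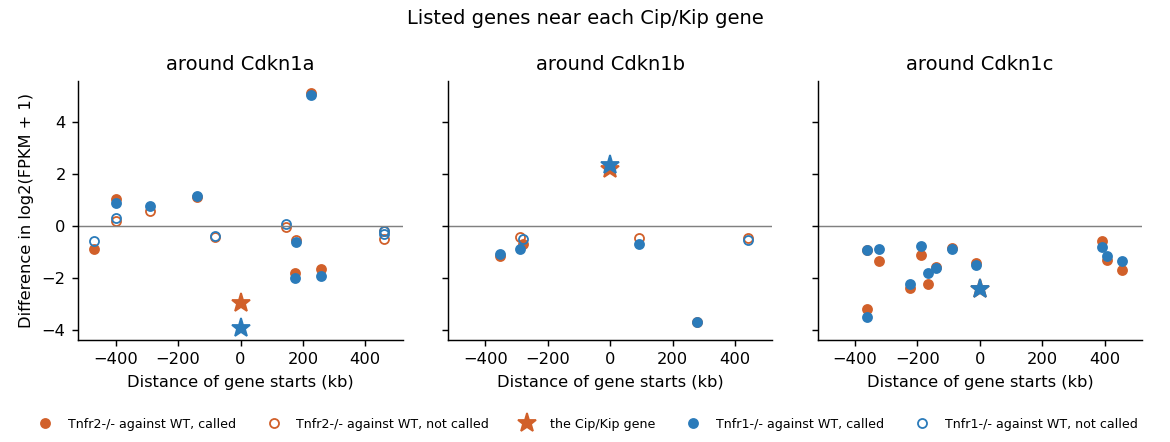
Difference in log2(FPKM + 1) from WT of listed genes within 500 kb of each Cip/Kip gene, against the distance between gene starts in kb (negative is upstream); filled points were called, open points were not, and stars are the Cip/Kip genes. All 12 genes around Cdkn1c and all 6 around Cdkn1b lie below 0, while those around Cdkn1a lie on both sides.

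GC content and length were set against the members' differences, as both can bias read counts. By its longest transcript, Cdkn1c has 59.4% GC and belongs to the richest of 10 GC classes of equal size, cut from 8166 genes. In that class the median difference in Tnfr2-/- against WT was -0.84, and 7.71% of its genes lay lower than Cdkn1c. Cdkn1a (54.4% GC) had 3.55% of its class below it, and Cdkn1b (43.1% GC) had 97.9%. In Tnfr1-/- against WT these shares were 10.4% for Cdkn1c, 1.71% for Cdkn1a, and 98.3% for Cdkn1b. In classes of like transcript length, 8.81% and 11.9% of genes lay lower than Cdkn1c (Tnfr2-/- and Tnfr1-/-), 4.16% and 2.08% lower than Cdkn1a, and 97.6% lower than Cdkn1b in both. The part of GC content and length in these differences was not tested.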

How the data were processed

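MDSCs were isolated with a kit, and their purity as CD45+Gr1+CD11b+ cells was checked by flow cytometry. Single-end reads of 50 bases were sequenced. The authors deposited FPKM for 8191 genes in 6 samples, and per the labels edgeR and FastQC were used with mm10, with no versions; the aligner and the tool that made the FPKM are not given in the sources used here. The authors also deposited a p-value per gene, which an ANOVA over the 3 genotypes on FPKM matched within 1 percent for all 8191 genes. It was used only for this check.

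FPKM values, which are not counts, were put on the log2(FPKM + 1) scale and fitted in one model without a block by limma 3.58.1 under R 4.3.3, with eBayes and its trend. edgeR needs counts and was not run. Scripts were tested on simulated data. The smallest p of an exact test of 2 against 2 samples is 0.333. The limma p-values rest on the spread between the 2 samples of a group, pooled over the 3 groups and drawn toward that of other genes. Each sample is a pool of mice, so they do not measure the spread between mice. Sequences came from RefSeq (GRCm38.p6) and transcripts from GENCODE M21, with 8166 symbols matched. Python 3.11.15, NumPy 2.4.6, pandas 2.3.3, SciPy 1.17.1, and matplotlib 3.10.9 were used.

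The members and gene lists were chosen with earlier results of these data known. Named were the members, each list's largest called rise and fall, core cycle genes, the imprinted cluster, and the 5 genes most like each member. The markers Mmp9 and Csf3r, and Cdk7, were named after their values were seen. Alternatives were a pseudocount of 0.1, filters at a mean of 1 or 5 FPKM, only the 2 groups compared, a replicate block, eBayes without trend, median-ratio and quantile scaling, adjustment over 25000 genes, and leaving out each sample. Genes outside the table were not analysed here, and 2 genes that this rule names are not reported here.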

Additional observations from a re-analysis of the deposited data

How the results depend on the processing

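Each member kept its direction and call against WT in all alternatives that could be run, on values already filtered for a difference among the genotypes. Between the knockouts, leaving out one sample in turn moved Cdkn1a from 0.311 to 1.615, Cdkn1b from -0.3325 to 0.0298, and Cdkn1c from -0.07078 to 0.1066, and median-ratio scaling gave -0.01995 for Cdkn1c. Only Cdkn1a was called in any of these, without Tnfr2-/- replicate 1. Against WT, genes called over the whole table numbered 5794 (Tnfr2-/-) and 6124 (Tnfr1-/-). A mean of at least 5 FPKM, which leaves fewer genes, gave 3823 and 4059, median-ratio scaling 3504 (1787 higher, 1717 lower) and 3722 (1908 higher, 1814 lower), and quantile scaling 3535 (1685 higher, 1850 lower) and 3796 (1738 higher, 2058 lower). Pathway genes called fell from 80 to 44 and 45 in Tnfr2-/-, and from 86 to 43 and 49 in Tnfr1-/-. Between the knockouts, 119 genes were called, against 217 at a mean of at least 1 FPKM, 0 with only the 2 groups (1436 at an unadjusted p under 0.05), 15 without trend, 208 with median-ratio and 238 with quantile scaling, 8 as for 25000 genes, and 2 to 662 when leaving out one sample, the most without Tnfr2-/- replicate 1. Of pathway genes, 1 was called, against 0 with only the 2 groups, without trend, or as for 25000 genes, 3 with quantile scaling, and 0 to 5 when leaving out one sample. The cause of these moves was not tested.

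Replicate numbers did not pair the samples (correlations of deviations 0.0217 to 0.0462), and a replicate block gave 7 calls between the knockouts, and 0 pathway calls, while it changed no call of a member. Named genes turned in sign as follows. With median-ratio scaling, in Tnfr2-/- and Tnfr1-/- against WT, Mdm2 gave 0.38 and 0.44, Rbl1 0.41 and 0.49, Nap1l4 0.11 and 0.22, and Tssc4 0.24 and 0.15; Csf1r gave 0.40 in Tnfr2-/-, and Cdk4 0.02121, Cdk6 0.00295, and Tnfrsf1b 0.17 in Tnfr1-/-. With quantile scaling, Mdm2 gave 0.19 and 0.21, Rbl1 0.26 and 0.29, Tssc4 0.11 and Csf1r 0.42 in Tnfr2-/-, and Nap1l4 0.0458 and Tnfrsf1b 0.0991 in Tnfr1-/-. Over all alternatives for named genes, 1472 of 1600 values kept direction and call.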

Other observations

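Senescence-linked genes were mostly low where Cdkn1a was low. Of 20 genes, 12 were listed, with 1 higher and 10 lower in Tnfr2-/- and 1 higher and 9 lower in Tnfr1-/- (medians -2.17 and -2.54, against -0.74 and -0.83 over all genes). Over all genes 57.1% and 60.7% were lower. After median-ratio scaling 7 and 8 of the 12 were lower, against 1717 and 1814 of all 8191 genes. The macrophage marker sum was low in the same samples, and the part of cell types in these differences was not tested. Mmp12, a macrophage elastase, fell most (-9.53 and -9.65) on the log2 scale, from 1095 and 994 FPKM in WT to at most 0.430 FPKM in the knockouts. Lmnb1 (lamin B1), which is known to be lost in senescence, rose by 1.44 and 1.33. Tnf was lower in Tnfr2-/- than in Tnfr1-/- (-0.81, adjusted p = 0.0407), the only gene of this list called between the knockouts, and the call was lost when any sample but Tnfr2-/- replicate 1 was left out (-0.69 to -0.92, adjusted p = 0.0982 to 0.145). Ccl2, a chemokine, was at 1.51 FPKM in Tnfr2-/- replicate 1 and at 14.6 FPKM in replicate 2, the sample that also had more Cdkn1a, and was named after its values were seen.

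Other marker lists moved as follows, with the members' direction given for reference and no part in it tested. Of the macrophage markers, Marco fell most (-7.79 in Tnfr2-/- and -8.07 in Tnfr1-/-), and Cd163 rose by 1.11 and 1.23, while Cd68 was 0.97 higher in Tnfr2-/- than in Tnfr1-/-. The granulocyte gene Retnlg rose by 8.68 and 9.39. Of 5 listed monocyte markers, 3 were higher and 1 lower in Tnfr2-/-, and 3 were higher and 2 lower in Tnfr1-/-. Ly6c1 rose by 7.06 and 6.47, Csf1r fell (-0.59 and -1.496) but turned in sign in Tnfr2-/- on rescaling and lost its call in Tnfr1-/- under both other scalings (-0.36 and -0.34), Lyz2 fell by 2.80 in Tnfr1-/- (-1.66 and no call after median-ratio scaling), and Ccr2 was 1.24 higher in Tnfr2-/- than in Tnfr1-/-. The Ccr2 and Cd68 calls between the knockouts were lost when any sample but Tnfr2-/- replicate 1 was left out (1.07 to 1.404 and 0.86 to 1.06). These calls, and that of Tnf, were also lost with a replicate block (adjusted p = 0.0614 for Ccr2 and Cd68, 0.0687 for Tnf), with only the 2 groups (0.160 for each), without trend, and as for 25000 genes. The Csf1r call in Tnfr2-/- was lost without either WT sample (-0.63 and -0.55) or without Tnfr2-/- replicate 1 (-0.43), and that of Lyz2 in Tnfr1-/- without either WT sample (-2.86 and -2.75), while Lyz2 in Tnfr2-/- (-1.99) gained a call without either Tnfr1-/- sample or without Tnfr2-/- replicate 1 (-2.13). Of 6 listed dendritic cell markers, 3 were lower in Tnfr2-/- and 5 in Tnfr1-/-, led by Itgax (-3.76 and -4.01), and only Flt3 rose (1.35 and 0.96). Among B and plasma cell genes, Jchain rose by 3.54 and 2.64 and Pax5 by 2.42 and 3.14. Of 3 listed T cell markers, Cd3d rose by 1.28 and 1.97 (the first lost without WT replicate 1, 1.25) and Cd4 fell (-2.32 and -2.22), and Procr led the fall of 4 progenitor markers (-4.25 and -4.71). Erythroid and stromal markers, 7 and 8 genes, were not listed.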
